A study of Mus musculus with 6 samples.

Results

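Integrins are the receptors by which cells grip the matrix around them, and laminins are the trimeric glycoproteins that form the sheet of a basement membrane. The deposited table held 36 of these genes among 19739, matched by gene name and not by any measured value. The rule and the lists below were chosen with earlier results of these data known. They were 17 integrin alpha genes, 8 integrin beta genes and 11 laminin chain genes, of which 5 encode alpha, 3 beta and 3 gamma chains. Itgax was not analysed here. The source was primary BMSCs of the mouse, the adherent stroma of bone marrow whose progeny include osteoblasts, adipocytes and chondrocytes. Every group carried AAV-delivered FTO, an enzyme that strips the N6-methyladenosine (m6A) mark from RNA. In 3 libraries it was the form labelled WT, and in the other 3 the form labelled 3KR. All were input libraries, taken before m6A enrichment, so they give transcript levels and not m6A. The titles carry the prefix OE, neither OE nor 3KR is spelled out in the labels, and no group without vector is used here, so each comparison is of one form of FTO with the other. The labels give no age, sex or strain of the mice, no promoter of the vector and no statement that libraries of a group came from separate animals or cultures, so the spread behind each p-value is that among these libraries and may be only technical.

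An integrin is a pair of an alpha and a beta subunit that spans the membrane. The alpha subunit largely sets the ligand, such as collagen, laminin or proteins with an Arg-Gly-Asp (RGD) motif, and the beta tail recruits talin and kindlin, which switch the receptor on and tie it to actin. A laminin joins 1 alpha, 1 beta and 1 gamma chain, and nidogen, perlecan and agrin link it to type IV collagen and to cells. In marrow stroma and bone-forming cells these receptors anchor cells to collagen and fibronectin.

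Levels are in FPKM, which corrects for the length of a transcript and the size of a library, so different genes can be set side by side. Depth is unknown because no counts were recovered. The FPKM of a library summed to 390527 to 391767 in WT and 408605 to 421234 in 3KR, and the labels name no batch. A gene was tested when it reached 1 FPKM in at least 3 of the 6 libraries, and a call is a limma adjusted p under 0.05 (Benjamini-Hochberg over 10985 genes) on log2(FPKM + 1). This scale understates changes of genes with low values. The median tested gene shifted upward in 3KR by a log2 change of 0.15 (ratio 1.11), and a change called relative has this shift subtracted. Calls were made under 4 scalings, namely the deposited one, libraries set to the same sum, median ratio scaling and quantile normalization. All 13 marrow stromal markers examined were expressed in both groups, among them Pdgfra, Thy1 and Prrx1, with summed levels of 3831 to 4006 FPKM in WT and 1829.5 to 1888 in 3KR. Of the 13, 8 were called lower and 3 higher, where 14.0% and 46.7% of all tested genes were, and 10 and 3 after median ratio scaling, where 24.1% and 21.6% were.

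The promoters of members that moved in opposite directions are shown first, since these stretches lie at the start of the genes described below. RefSeq windows on GRCm38.p6 were available for 16 of the 23 tested members, and the 250 bases before the annotated start are printed 5′ to 3′ on the gene's strand. Itga8 (chr2:12301945-12302194, minus strand) and Itgb1 (chr8:128685404-128685653, plus strand) rose in 3KR. Itga11 (chr9:62677605-62677854, plus strand) and Lamb1 (chr12:31265043-31265292, plus strand) fell. Capitals mark any match, on either strand, to one of 5 motifs. The GC box was searched as GGGCGG and the AP-1 site as TGANTCA. The TATA box was searched as TATAAA and the TEAD site as CATTCC. The RUNX site was searched as TGTGGT. No matches overlapped.
Itga8: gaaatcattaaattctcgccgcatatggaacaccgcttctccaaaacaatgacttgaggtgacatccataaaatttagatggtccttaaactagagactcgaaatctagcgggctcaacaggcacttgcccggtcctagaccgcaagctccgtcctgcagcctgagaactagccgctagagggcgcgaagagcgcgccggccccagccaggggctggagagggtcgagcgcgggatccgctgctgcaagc
Itgb1: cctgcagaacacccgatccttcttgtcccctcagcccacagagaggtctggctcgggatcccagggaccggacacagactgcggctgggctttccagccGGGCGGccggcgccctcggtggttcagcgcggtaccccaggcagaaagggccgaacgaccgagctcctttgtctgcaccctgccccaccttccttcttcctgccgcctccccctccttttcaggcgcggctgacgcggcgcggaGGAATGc
Itga11: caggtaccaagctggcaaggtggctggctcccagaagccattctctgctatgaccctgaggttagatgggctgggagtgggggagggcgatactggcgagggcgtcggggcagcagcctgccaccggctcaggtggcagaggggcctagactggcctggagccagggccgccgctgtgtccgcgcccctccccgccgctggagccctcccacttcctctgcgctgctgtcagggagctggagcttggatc
Lamb1: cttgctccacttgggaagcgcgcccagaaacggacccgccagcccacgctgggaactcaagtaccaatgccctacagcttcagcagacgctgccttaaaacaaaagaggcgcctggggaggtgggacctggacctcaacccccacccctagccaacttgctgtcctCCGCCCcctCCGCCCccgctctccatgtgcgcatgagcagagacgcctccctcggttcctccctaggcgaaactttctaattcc
Itgb1 held 1 GC box and 1 TEAD match, the latter beginning 7 bases before the start, and Lamb1 held 2 GC boxes. No searched letters occurred in the windows of Itga8 and Itga11. Among all 32851 promoter windows of this length, 32.7% held the GC box, 6.75% the AP-1 site, 12.4% the TATA box, 12.6% the TEAD site and 14.0% the RUNX site. The GC content of the shown windows was 56.4% to 68.4%, and the median of all windows was 52.4%. These matches are letters in a window and no binding was measured.

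Single integrin and laminin transcripts differed between the forms of FTO in either direction, some severalfold, and others stayed close to the median gene. Of the 36 members, 23 were tested, of which 8 were called higher in 3KR and 8 lower. Together 69.6% of the tested members were called, against 60.6% of all tested genes. In each direction the share was 34.8%, while 46.7% of all tested genes were called higher and 14.0% lower. After median ratio scaling 4 members were called higher (17.4%, against 21.6% of all genes) and 11 lower (47.8%, against 24.1%). Under all 4 scalings 4 were called higher (17.4%, against 21.5% of all genes) and 8 lower (34.8%, against 13.9%). The median relative log2 change of the tested members was -0.21, and by construction 0 over all tested genes. The groups of libraries did not overlap for 17 members (73.9%, against 66.7% of all tested genes). Itga7 and Itgb2 passed the filter through the WT libraries alone, so these counts describe the genes tested and are no evidence about the family. A call with groups apart and a relative change of at least 0.58 held for 2 members that rose, Itga8 and Itga6, and 4 that fell, Itga11, Itgb3, Itgb2 and Lamb1. Among all tested genes 3.55% rose and 7.45% fell by this rule.

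**Figure D1:**
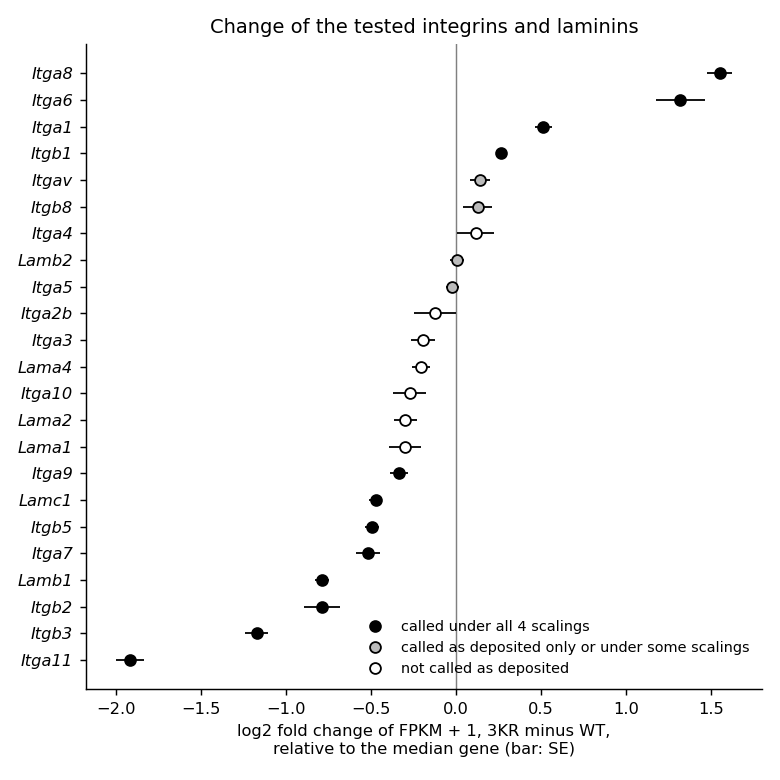
Log2 fold change of each of the 23 tested members on the FPKM + 1 scale, 3KR minus WT and relative to the median gene, with the standard error (SE) of the limma fit as bars and fill showing under which scalings the gene was called. Itga8 (1.55) and Itga6 (1.32) stand at the upper end, and Itga11 (-1.92) and Itgb3 (-1.17) at the lower end.

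The alpha subunits that bind RGD ligands included the member with the largest rise. Itga8 encodes the alpha8 subunit, which pairs with beta1 and binds nephronectin, fibronectin and osteopontin. Itga8 was at 3.69, 4.54 and 4.42 FPKM in the WT libraries and at 16.6, 15.6 and 15.6 in the 3KR libraries. All 3KR libraries lay above all WT libraries. It rose 3.77-fold, with a log2 change of 1.70 (SE 0.0714, limma adjusted p = 4.954e-07), and ranked 31st of 10985 genes by rise. Itgav encodes alphav, the partner of beta1, beta3, beta5, beta6 and beta8, and was the most abundant alpha transcript in both groups. Itgav was at 52.4, 53.9 and 58.7 FPKM in WT and at 72.6, 64.3 and 65.9 in 3KR. The groups did not overlap, and the log2 change was 0.29 (SE 0.0596, limma adjusted p = 0.003347). After median ratio scaling this became 0.12 (limma adjusted p = 0.168), while it was still called after rescaling to the same sum (0.21, limma adjusted p = 0.02624) and after quantile normalization (0.20, limma adjusted p = 0.03761). Itga5, the fibronectin receptor subunit, averaged 41.2 ± 0.597 FPKM in WT against 45.2 ± 1.25 in 3KR (SD, n = 3), a relative change of -0.021. Its call as deposited (limma adjusted p = 0.01766) was lost under the 3 other scalings, with the sign turning after median ratio scaling (-0.037), and without WT replicate 2 (0.05482), WT replicate 3 (0.06275) or 3KR replicate 3 (0.0585). Itga2b, the platelet fibrinogen receptor subunit, was at 0.950 ± 0.274 and 0.983 ± 0.229 FPKM (limma adjusted p = 0.8628).

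Collagen-binding alpha subunits moved in opposite directions. Itga11 encodes alpha11, a beta1 partner that binds fibrillar collagen in fibroblasts and bone-forming mesenchyme. Itga11 was at 28.9, 28.1 and 26.3 FPKM in WT and at 8.52, 6.67 and 7.24 in 3KR. Every 3KR library was below every WT library. It was 3.71-fold lower, a log2 change of -1.77 (SE 0.0803, limma adjusted p = 7.753e-07), and ranked 82nd of 10985 genes by fall. Itga1 encodes alpha1, which prefers type IV collagen, and is given in full after its values were seen, since its relative change of 0.51 fell just short of the naming rule. Itga1 was at 30.6, 30.2 and 29.0 FPKM in WT and at 51.4, 45.7 and 47.1 in 3KR. The groups were apart, and it rose 1.61-fold (log2 change 0.66, SE 0.0513, limma adjusted p = 1.641e-05) and was called under all 4 scalings. The gene Pelo overlaps the span of Itga1 in RefSeq and averaged 18.5 FPKM in WT against 21.4 in 3KR, a relative log2 change of 0.050 that was called as deposited and under none of the 3 other scalings. Whether reads are shared between these genes was not tested. The ratio of Itga1 to Itga11 transcripts, in which any single factor per library cancels, went from 1.08 ± 0.0231 in WT to 6.46 ± 0.410 in 3KR (SD, n = 3, exact permutation p = 0.1, two-sided, the smallest that 3 against 3 libraries allow). This ratio was chosen after the values were seen. Itga10, a collagen receptor of cartilage, was at 25.8 ± 2.65 and 23.7 ± 2.97 FPKM with overlapping groups, and Itga2 reached at most 0.441 FPKM in any library. The collagen-binding transcripts together summed to 83.6 ± 4.81 FPKM in WT against 79.6 ± 6.60 in 3KR (SD, n = 3, exact permutation p = 0.5), so the sums overlapped while the members diverged.

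The laminin-binding alpha subunits summed to 13.4 ± 2.06 FPKM in WT against 28.2 ± 1.36 in 3KR (SD, n = 3, exact permutation p = 0.1, the smallest possible). Itga6 made up most of this sum. It encodes alpha6, a laminin receptor subunit that pairs with beta1 or beta4. Itga6 was at 10.2, 6.10 and 7.73 FPKM in WT and at 25.3, 23.2 and 22.0 in 3KR. The WT libraries were spread out but all stayed below the 3KR libraries. The gene rose 2.94-fold (log2 change 1.47, SE 0.144, limma adjusted p = 6.83e-05), and leaving out 1 library at a time gave log2 changes of 1.31 to 1.64. Itga7, the alpha subunit of the muscle laminin receptor, fell from 1.42 ± 0.0647 to 0.879 ± 0.103 FPKM (limma adjusted p = 0.002583), at a level near the filter. It passed the filter through the WT libraries alone, so this p-value is no independent evidence of a fall. Itga3, a receptor subunit for epithelial laminins, was at 3.98 ± 0.121 and 3.84 ± 0.418 FPKM (limma adjusted p = 0.618).

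The remaining alpha subunits differed little between the groups or were barely present. Itga9, which binds tenascin C and osteopontin, averaged 31.4 ± 0.780 FPKM in WT against 27.5 ± 1.86 in 3KR (SD, n = 3). Its call as lower (limma adjusted p = 0.01661) held under all 4 scalings and was lost without WT replicate 2 (0.05679), 3KR replicate 2 (0.06032) or 3KR replicate 3 (0.05497), and with no filter on low values (0.05054). Itga4, which binds VCAM-1 and fibronectin, was at 1.20 ± 0.0766 and 1.66 ± 0.405 FPKM and was not called (limma adjusted p = 0.06319), although without 3KR replicate 2 it was (0.01664). The leukocyte subunits Itgad, Itgae, Itgal and Itgam reached at most 0.305 FPKM in any library. Itgam, the macrophage marker CD11b, was at 0.0651, 0.220 and 0.157 FPKM in WT and was listed at 0 in 3KR replicates 1 and 2 and at 0.0211 in replicate 3.

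**Figure D2:**
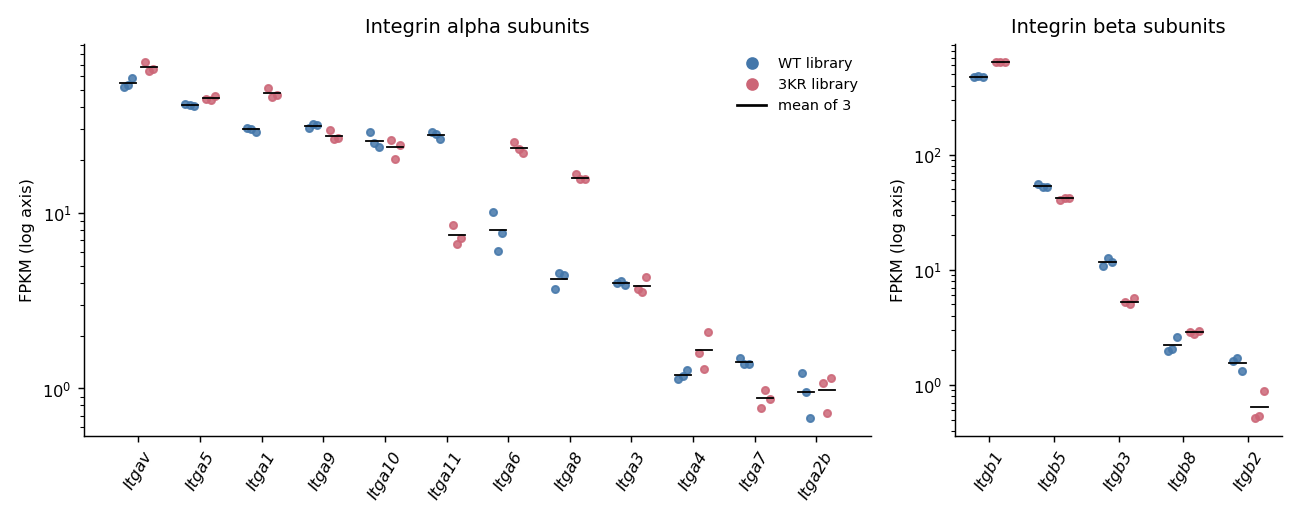
FPKM of the tested integrin alpha subunits and beta subunits in each library on a log axis, with the mean of 3 libraries as a line. Itga11 falls from about the level of Itga10 to below Itga8, Itga6 and Itga8 rise, and Itgb1 exceeds the other beta subunits in every library.

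In order of mean level, the leading alpha transcripts were Itgav, Itga5, Itga9, Itga1, Itga11 and Itga10 in WT. In 3KR they were Itgav, Itga1, Itga5, Itga9, Itga10, Itga6, Itga8 and then Itga11. Library ranges overlapped for Itga11 and Itga10 in WT and for Itga1 and Itga5 in 3KR. Within each library of the group the first of the pair was higher, in WT replicate 1 by only 28.9 against 28.7 FPKM. Itga10 and Itga6 also overlapped in 3KR and changed order between its libraries, so their order is not settled. As a share of the summed alpha FPKM, Itga11 went from 12.0% ± 0.488 to 2.80% ± 0.197 (SD, n = 3). Itga6 went from 3.45% ± 0.836 to 8.82% ± 0.436, Itga1 from 12.9% ± 0.295 to 18.0% ± 0.190 and Itga8 from 1.83% ± 0.225 to 5.97% ± 0.160. Each of these shares was apart between the groups. The exact permutation test gave p = 0.1, two-sided, for each, which is the smallest possible, and 0.171 adjusted over the 36 shares compared, of which 21 had p = 0.1.

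Among the beta subunits the common partner Itgb1 rose, while Itgb3 and Itgb5 fell. Itgb1 encodes beta1, which pairs with most of the alpha subunits above, and ranked 67th of all genes by mean FPKM. Itgb1 was at 472, 486 and 478 FPKM in WT and at 636, 637 and 643 in 3KR. The 3KR libraries were all above the WT libraries, 1.34-fold on average (log2 change 0.42, SE 0.0285, limma adjusted p = 8.285e-06), and 0.25 on the log2 scale after median ratio scaling (limma adjusted p = 2.849e-04). Itgb3 encodes beta3, which forms the vitronectin receptor of osteoclasts with alphav and the platelet fibrinogen receptor with alphaIIb. Itgb3 was at 10.9, 12.8 and 11.8 FPKM in WT and at 5.21, 5.02 and 5.67 in 3KR. It was lower in every 3KR library, 2.23-fold on average (log2 change -1.02, SE 0.0688, limma adjusted p = 7.35e-06). Itgb5 encodes beta5, another alphav partner and a vitronectin receptor, and fell from 53.4 ± 1.73 to 41.8 ± 0.837 FPKM (SD, n = 3, limma adjusted p = 1.611e-04) under all 4 scalings. Itgb8, whose product binds latent TGF-beta with alphav, was at 2.21 ± 0.363 and 2.87 ± 0.0933 FPKM. Its call as higher (limma adjusted p = 0.02215) was lost under the 3 other scalings, with no filter (0.07458), and without WT replicate 1 (0.07314), WT replicate 2 (0.07229), 3KR replicate 1 (0.05243) or 3KR replicate 3 (0.06243).

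Itgb2 encodes beta2, the beta subunit of leukocyte integrins. Itgb2 was at 1.63, 1.71 and 1.33 FPKM in WT and at 0.512, 0.541 and 0.892 in 3KR. It was lower in each 3KR library, with a log2 change of -0.64 (SE 0.107, limma adjusted p = 0.001245). Like Itga7, it passed the filter through the WT libraries alone, so this p-value is no independent evidence of a fall. Of 14 macrophage and monocyte markers measured, 11 were under 1 FPKM in every library and 2 were tested, of which Mpeg1 was called lower and Cd68 was not called. On average 13 of the 14 had lower values in 3KR, and their summed level was 9.50 to 10.3 FPKM in WT and 1.45 to 3.02 in 3KR, led by Mpeg1, with means of 6.79 and 0.854. Ptprc, the pan-leukocyte marker CD45, averaged 0.119 FPKM in WT and 0.0219 in 3KR, and 5 of the markers, Aif1, C1qa, C1qb, C1qc and Ccr2, were listed at 0 in every 3KR library, as Ccr2 was in every WT library. Fewer cells of a type and less RNA per cell cannot be told apart in bulk libraries, and the part of these markers in the result for Itgb2 and Itgb3 was not tested. The 5 platelet and megakaryocyte markers measured summed to 2.98 to 3.66 FPKM in WT and 2.35 to 3.36 in 3KR, mostly from Gp1bb. Gp1bb averaged 2.20 FPKM in WT and 2.52 in 3KR and was not called. Gp1ba was listed at 0 in every library, Pf4 reached at most 0.153 FPKM, Ppbp averaged 0.924 FPKM in WT and 0.137 in 3KR, and Vwf 0.0595 and 0.0579.

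The summed FPKM of the alpha genes was 231 ± 3.49 in WT and 267 ± 14.7 in 3KR, and that of the beta genes 548 ± 7.09 and 691 ± 4.91 (SD, n = 3, exact permutation p = 0.1 each, the smallest possible). Within the beta class Itgb1 took 87.2% ± 0.269 of the sum in WT and 92.5% ± 0.134 in 3KR. The share of Itgb5 went from 9.73% ± 0.403 to 6.05% ± 0.0997 and that of Itgb3 from 2.15% ± 0.146 to 0.767% ± 0.0435. The ratio of Itgb5 to Itgb3, chosen after the values were seen, was 4.54 ± 0.497 in WT and 7.92 ± 0.488 in 3KR (SD, n = 3, exact permutation p = 0.1, the smallest possible). Of the other beta genes, Itgb4, the hemidesmosome subunit and partner of alpha6, averaged 0.726 FPKM in WT against 0.948 in 3KR and was not tested, and Itgb6 and Itgb7 reached at most 0.344 FPKM.

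**Figure D3:**
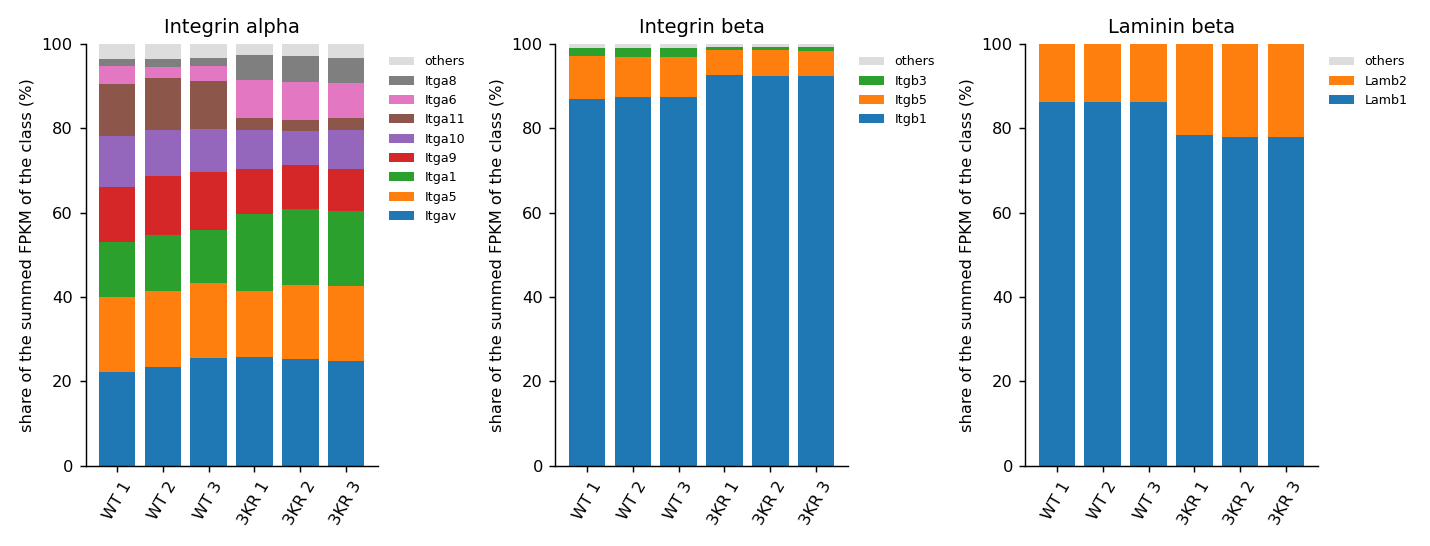
Share of each subunit in the summed FPKM of its class, in percent, for the integrin alpha, integrin beta and laminin beta classes in each of the 6 libraries, with minor subunits grouped as others. The share of Itga11 shrinks and those of Itga1, Itga6 and Itga8 grow in each 3KR library. The share of Lamb1 is smaller and that of Lamb2 larger in 3KR, while the level of Lamb2 moved about as the median gene did.

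Laminin transcripts were dominated by 1 chain of each kind, Lama4, Lamb1 and Lamc1, whose products form the trimer typical of mesenchymal and endothelial basement membranes. Lama4 encodes alpha4 and took 96.7% ± 0.201 of the laminin alpha FPKM in WT against 97.2% ± 0.155 in 3KR (SD, n = 3). Lama4 was at 202, 182 and 187 FPKM in WT and at 193, 176 and 179 in 3KR. The groups overlapped and the gene was not called as deposited (log2 change -0.056, SE 0.0509, limma adjusted p = 0.3689), while median ratio scaling gave -0.23 (limma adjusted p = 0.01346). Lama2, the alpha chain of muscle and nerve laminin, was at 3.73 ± 0.293 and 3.27 ± 0.164 FPKM. It was not called as deposited (limma adjusted p = 0.08504) but was called lower under the 3 other scalings, with limma adjusted p of 0.02248 after rescaling to the same sum, 0.006963 after median ratio scaling and 0.006662 after quantile normalization. Lama1, the alpha chain of the early embryo, was at 1.54 ± 0.114 and 1.30 ± 0.273 FPKM with overlapping groups. Lama5, found in most mature epithelial and vascular basement membranes, was at 1.29, 1.13 and 0.900 FPKM in WT and at 0.699, 0.662 and 0.677 in 3KR. It reached 1 FPKM in too few libraries to be tested, and its groups did not overlap.

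The beta chain changed more than its partners. Lamb1 was at 142, 133 and 134 FPKM in WT and at 88.9, 85.4 and 87.3 in 3KR. Every 3KR library lay below every WT library, and Lamb1 was 1.56-fold lower (log2 change -0.64, SE 0.0393, limma adjusted p = 4.442e-06). Lamb2, the beta chain of the neuromuscular junction and kidney filter, was at 22.6, 21.4 and 21.3 FPKM in WT and at 24.4, 24.2 and 24.5 in 3KR. The groups were apart as deposited, at a log2 change of 0.16 (limma adjusted p = 0.01109), but this is about the shift of the median gene and became -0.0069 after median ratio scaling (limma adjusted p = 0.9091). The ratio of Lamb1 to Lamb2, chosen after the values were seen and likewise free of any single factor per library, went from 6.26 ± 0.0434 to 3.58 ± 0.0613 (SD, n = 3, exact permutation p = 0.1, the smallest possible). Lamb2 thus took 13.8% ± 0.0836 of the laminin beta FPKM in WT and 21.8% ± 0.289 in 3KR. Lamc1, the gamma chain of most laminins, was at 39.9, 38.2 and 38.2 FPKM in WT and at 31.1, 30.1 and 31.1 in 3KR. It was lower in all 3KR libraries, 1.26-fold on average (log2 change -0.32, SE 0.0385, limma adjusted p = 1.972e-04), and called under all 4 scalings. Of 8 endothelial markers, whose cells also make these laminins, 5 were under 1 FPKM in every library. Their summed level was 7.36 to 8.14 FPKM in WT and 3.49 to 3.87 in 3KR, led by Tek, with means of 5.14 and 1.46. On average 5 of the 8 had lower values in 3KR. Kdr (0.139 in WT and 0.335 in 3KR) and Egfl7 (0.783 and 0.987) had higher ones. Tie1 was listed at 0 in every library and Pecam1 reached at most 0.0620. Their part in the lower laminin chains was not tested. Lama3 and Lamb3, chains of epithelial laminin, reached at most 0.165 and 0.0458 FPKM, and Lamc3 at most 0.0782.

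**Figure D4:**
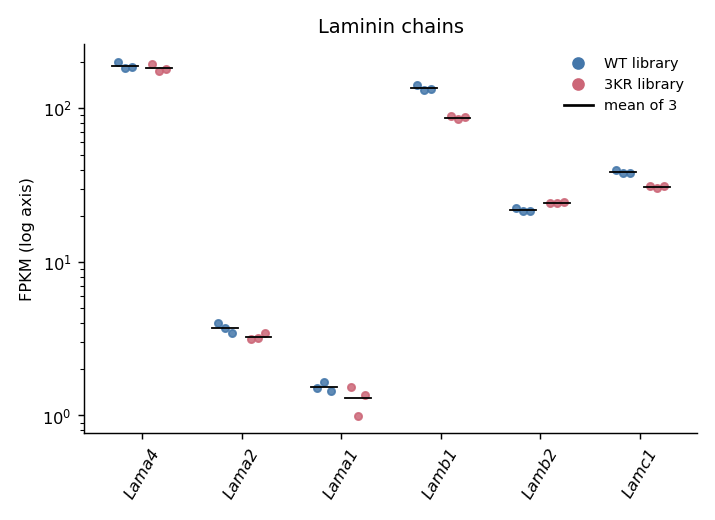
FPKM of the 6 tested laminin chain genes in each library on a log axis, with the mean of 3 libraries as a line. Lamb1 and Lamc1 are lower in each 3KR library, Lamb2 is slightly higher as deposited but not after median ratio scaling, and the groups of Lama4 overlap.

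Transcripts listed as partners of the basement membrane or receptors of laminin were called lower more often than higher. The list of basement membrane partners and laminin receptors had 18 tested genes, of which 10 were called lower (55.6%, against 14.0% of all genes) and 5 higher (27.8%, against 46.7%), with a median relative log2 change of -0.33. After median ratio scaling 12 were called lower (66.7%, against 24.1%) and 4 higher (22.2%, against 21.6%). Nid2, encoding nidogen 2, which bridges laminin gamma1 and type IV collagen, fell from 178 ± 6.24 to 35.1 ± 2.54 FPKM (SD, n = 3, limma adjusted p = 3.037e-08). Fbln1 and Fbln2, encoding fibulins that bind laminins and nidogen, were 5.21-fold and 2.49-fold lower. Agrn, encoding the laminin-binding proteoglycan agrin, fell from 87.2 ± 8.74 to 55.7 ± 2.24 FPKM. Hspg2, encoding perlecan, went the other way, from 294 ± 23.6 to 387 ± 6.06 FPKM. Lower in level, Col15a1, a basement membrane collagen, rose from 1.20 ± 0.508 to 2.89 ± 0.349 FPKM. Tinagl1, a laminin-associated matrix protein, rose 1.77-fold, from 2.19 to 3.88 FPKM. Sgcd, a sarcoglycan of the dystrophin complex, rose 1.56-fold, from 2.88 to 4.47 FPKM. All 8 were called under all 4 scalings. Dag1, encoding dystroglycan, a laminin receptor outside the integrins and named after its values were seen, averaged 43.0 FPKM in WT against 44.3 in 3KR and was not called.

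Genes for the cytoplasmic side of integrins went both ways. The list of activators and adaptors had 32 tested genes, of which 17 were called higher (53.1%, against 46.7% of all genes) and 8 lower (25.0%, against 14.0%), with a median relative log2 change of 0.055. After median ratio scaling 11 were called higher (34.4%, against 21.6%) and 11 lower (34.4%, against 24.1%). Vcl, encoding vinculin, which links talin to actin, rose from 121 ± 1.91 to 265 ± 11.3 FPKM (SD, n = 3, limma adjusted p = 1.617e-07). Parvb, a parvin that binds integrin-linked kinase, rose 2.13-fold, Actn4, an actin-crosslinking actinin, 1.69-fold and Flna, the actin crosslinker filamin A, 1.56-fold. Nedd9, a docking protein of focal adhesion signalling, fell 1.66-fold from 19.6 ± 0.595 to 11.8 ± 0.638 FPKM. Tln2, encoding talin 2, was 1.58-fold lower and Tns2, encoding tensin 2, and Apbb1ip, encoding the Rap1 effector RIAM, were each 1.55-fold lower. These 8 genes were called under all 4 scalings. Tln1, encoding talin 1, and Fermt2, encoding kindlin 2, both named after their values were seen, were called higher, with means of 84.6 and 111 FPKM for Tln1 and 124 and 165 FPKM for Fermt2 in WT and 3KR.

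Ligands of integrins were also divided. Of 18 tested ligand genes 7 were called higher (38.9%, against 46.7%) and 9 lower (50.0%, against 14.0%), with a median relative log2 change of -0.27. After median ratio scaling 6 were called higher (33.3%, against 21.6%) and 11 lower (61.1%, against 24.1%). Npnt, encoding nephronectin, a ligand of alpha8 beta1, rose from 1.77 ± 0.00322 to 5.51 ± 0.405 FPKM (SD, n = 3, limma adjusted p = 1.488e-06), in the same direction as Itga8. Cyr61, a matricellular integrin ligand, rose 2.14-fold, Icam1, a ligand of beta2 integrins, 1.81-fold, and Spp1, encoding osteopontin, 1.66-fold. The collagens Col1a1 and Col1a2 fell 2.27-fold and 2.21-fold, as did Postn, encoding periostin, 5.26-fold, and Fbn1, encoding the RGD protein fibrillin 1, 2.16-fold. All 8 were called under all 4 scalings.

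**Figure D5:**
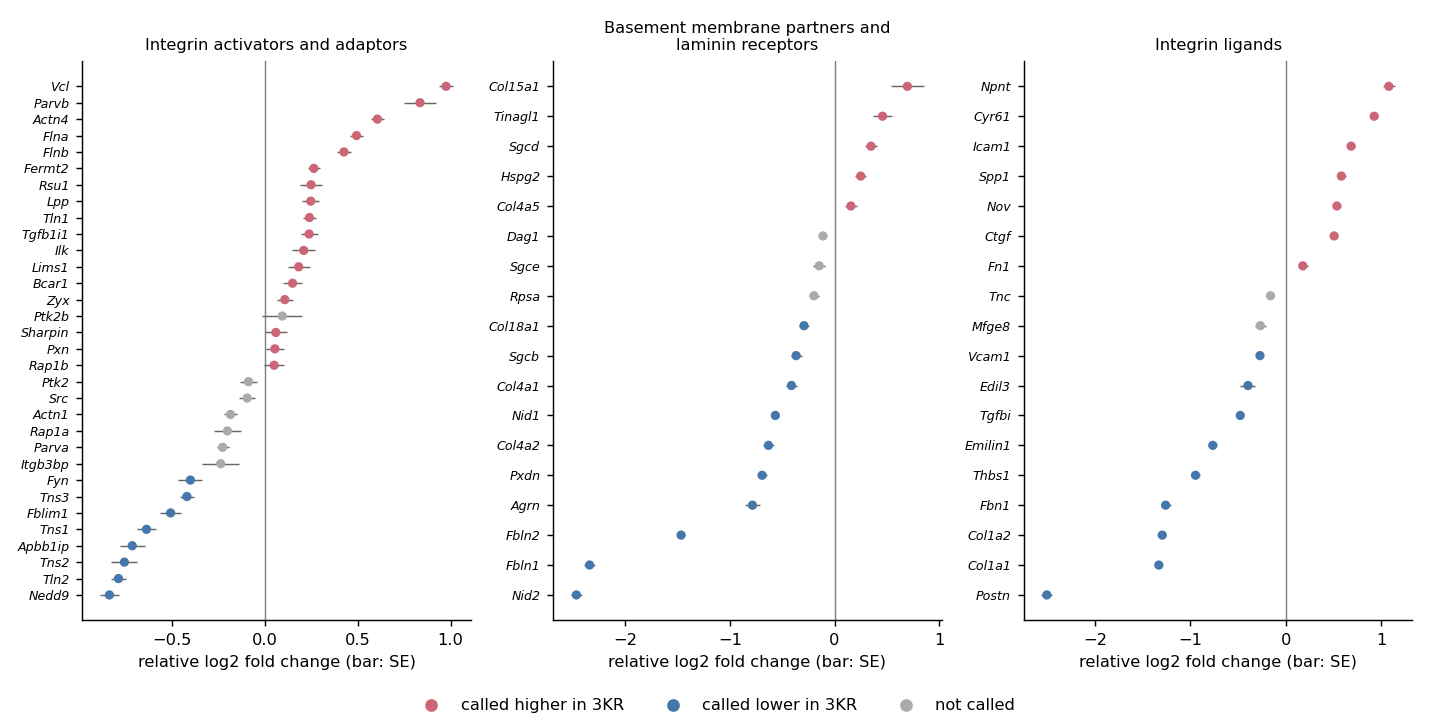
Relative log2 fold change, 3KR minus WT, with the standard error of the fit as bars, for each tested gene of the 3 lists, coloured by its call as deposited. Vcl leads the adaptors, Nid2 and Fbln1 are lowest among the basement membrane partners, and Npnt is highest and Postn lowest among the ligands.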

How the data were processed

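The 6 input libraries, 3 with the WT and 3 with the 3KR form of FTO, were grouped by their titles. RNA was isolated with TRIzol and enriched for poly(A) transcripts, per the labels' protocols. The authors deposited 1 table of FPKM values, per the file headers. The sources used here do not give aligner, quantifier, annotation or strand setting. They name GRCh 38, a human assembly, per the submitters' processing notes, while organism and symbols are mouse. The coordinates printed above are thus those of RefSeq and not of the measurement. Promoters and gene names come from RefSeq on GRCm38.p6, whose symbols matched 36 of the 36 members.

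Of 19763 rows, 24 repeated a gene name, of which the row of highest mean stayed, leaving 19739 genes. Among 4714 low genes at most 5 shared a ratio of values between 2 libraries (to 5 significant digits), so no read counts were recovered and the depth is unknown. Genes at 1 FPKM or more in at least 3 libraries, 10985 in all, were fitted with limma 3.58.1 in R 4.3.3 on log2(FPKM + 1), with an intensity trend and Benjamini-Hochberg adjustment at 0.05. The fit was tested on simulated data. Shares, sums and ratios were compared by exact permutation tests. Members with a call, groups apart and a relative log2 change of at least 0.58, and the most abundant subunit of each class, are given by library. Up to 4 higher and 4 lower called genes of each list are named. The members, lists and rules were chosen with earlier results of these data known. Alternatives were another pseudocount, 2 other filters, 3 other scalings, a replicate block, no intensity trend, summing of repeated names and leaving out each library. The values of 1 untested member are not reported here.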

Additional observations from a re-analysis of the deposited data

How the results depend on the processing

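Scaling weighed most. The number of members called higher, 8 as deposited, was 5 after rescaling to the same sum, 4 after median ratio scaling and 5 after quantile normalization, and the number of adaptors called higher fell from 17 to 11 after median ratio scaling. Basement membrane partners called higher numbered 2 at an FPKM of 5 or more, where fewer genes were tested. The log2 ratio of summed FPKM, 3KR over WT, was 0.21 as deposited for integrin alpha genes and 0.12, 0.036 and 0.11 under rescaling to the same sum, median ratio scaling and quantile normalization. In the same order it was 0.33, then 0.25, 0.16 and 0.40 for integrin beta genes, -0.50, then -0.59, -0.67 and -0.56 for laminin beta chains, and -0.32, then -0.41, -0.49 and -0.42 for laminin gamma chains. For laminin alpha chains it was -0.063, then -0.15 and -0.23 under the first pair of these. Directions turned for 4 members with small changes, Itga5 (-0.037) and Lamb2 (-0.0069) after median ratio scaling, and Itga2b (-0.014, -0.056 and -0.054 under the 3 scalings), none of them called there, and Itga3 among the left-out libraries. Leaving out each library gave log2 changes of -0.078 to 0.13 for Itga2b and -0.11 to 0.0015 for Itga3. It gave 6 to 9 members called higher and 7 to 8 lower. The numbers 1 to 3 showed no sign of pairing the libraries over all tested genes. Deviations of same-numbered libraries from their group means correlated at -0.0147, 0.0295 and -0.0338, and not every library correlated best with its own number. With so few libraries in a group, these correlations cannot exclude a pairing. With a replicate block 9 members were called higher and 8 lower, Itga4 being the addition (limma adjusted p = 0.04645). Itga8, Itga6, Itga1, Itgb1, Itga11, Itgb3, Itgb5, Itgb2, Itga7, Lamb1 and Lamc1 kept direction and call under every alternative in which they were tested. Without counts, the precision of genes near 1 FPKM, such as Itgb2 and Itga7, is unknown.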
